A study of Mus musculus with 10 samples.

Results

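Cytokines that act through Jak kinases and Stat factors were followed here as 10 genes measured in the spleens of mice with and without proteoglycan-induced arthritis (PGIA). The genes were 4 kinases (Jak1, Jak2, Jak3 and Tyk2), 3 transcription factors (Stat3, Stat4 and Stat6) and 3 feedback inhibitors (Socs1, Socs3 and Cish). They were listed by gene symbol, by a rule that uses no measured value but that was written with earlier results of these data known, out of 18193 genes that the array names with a probe set of their own. The array measured them with 20 probe sets, and 19 of these lay above the median signal in all 10 arrays.

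Each of 10 female BALB/c mice gave 1 array, hybridised with RNA from a 50 mg piece of its spleen. All 10 mice had been injected with cartilage proteoglycan (PG) in the adjuvant DDA on days 0, 21 and 42, so that no group was unimmunized. The groups were old arthritic mice (labelled 9 and 9 months of age), old non-arthritic mice (7 and 5 months), young arthritic mice (5 and 4 months) and young non-arthritic mice (3, 3, 2 and 1 months). The arthritic mice averaged 6.75 months and the non-arthritic mice 3.5 months, and within each age label the arthritic mice were the older ones, so arthritis and age cannot be told apart in those comparisons and were fitted together in a separate model. Whether age was counted at the first injection or at harvest is not stated in the labels, and the series' text gives young mice an age of 1 month, which only 1 of the 6 has.

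In this pathway a cytokine joins its receptor chains, the Jak kinases bound to those chains phosphorylate each other and the receptor, and a Stat factor that docks there is phosphorylated, pairs with another and enters the nucleus. Jak1 and Jak3 serve the receptors that share the common gamma chain, Jak2 serves receptors for growth factors such as erythropoietin and for interferon gamma, and Tyk2 serves interleukin (IL)-12 and type I interferon. Stat3 acts after IL-6 and IL-10, Stat4 after IL-12 and Stat6 after IL-4 and IL-13. Socs1, Socs3 and Cish are themselves induced by Stat factors and damp the signal, so their RNA is often read as a trace of recent cytokine signalling.

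The promoters of the 3 feedback genes are shown because they are the members through which the pathway acts on itself. Each is the RefSeq window from 250 bases before to 50 bases after the start site, on GRCm38.p6, and capitals mark matches to the letters TTCNNNGAA (the core that Stat dimers bind) or GAAA, any 2 bases and GAAA (an interferon-response core), with overlapping matches joined in 1 run.
Cish, chr9:107296409-107296708, plus strand: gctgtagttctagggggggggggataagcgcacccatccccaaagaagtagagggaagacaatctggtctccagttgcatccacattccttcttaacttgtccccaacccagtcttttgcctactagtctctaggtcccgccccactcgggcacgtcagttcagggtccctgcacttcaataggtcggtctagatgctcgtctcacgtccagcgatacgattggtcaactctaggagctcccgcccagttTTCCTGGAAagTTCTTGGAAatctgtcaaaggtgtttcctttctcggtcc
Socs3, chr11:117969317-117969616, minus strand: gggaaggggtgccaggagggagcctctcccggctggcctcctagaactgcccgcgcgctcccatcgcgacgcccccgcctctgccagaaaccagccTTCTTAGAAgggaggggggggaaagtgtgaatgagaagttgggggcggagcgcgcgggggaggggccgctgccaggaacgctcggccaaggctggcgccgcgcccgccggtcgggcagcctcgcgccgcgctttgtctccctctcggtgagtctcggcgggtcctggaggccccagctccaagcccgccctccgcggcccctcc
Socs1, chr16:10785487-10785786, minus strand: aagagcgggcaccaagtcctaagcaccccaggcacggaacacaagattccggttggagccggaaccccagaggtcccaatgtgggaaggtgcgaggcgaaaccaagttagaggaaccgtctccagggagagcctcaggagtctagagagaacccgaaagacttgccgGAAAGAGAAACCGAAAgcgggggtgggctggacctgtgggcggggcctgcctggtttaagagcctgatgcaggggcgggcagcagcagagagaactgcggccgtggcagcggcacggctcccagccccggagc
The Cish window held 2 matches to TTCNNNGAA, TTCCTGGAA at base 1, the start site, and TTCTTGGAA at base 12. The Socs3 window held 1, TTCTTAGAA, at base -154 counted from the start site. The Socs1 window held none of these, but 2 overlapping matches to the interferon-response core, at bases -83 and -77. The second of 2 Stat4 start sites had 1 match to the interferon-response core, and the windows of the other 6 members had no match to either. Both strands were read, and 8.3% of all 32851 promoter windows held TTCNNNGAA and 3.44% the interferon-response core. The longer spacing TTC, any 4 bases and GAA was found in 6.95% of all windows and in no member. These are matches of letters, not binding sites.

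None of the 10 genes passed the test for arthritis or for age. Stat3 and Jak2 did at equal age under 1 alternative, array weights, which called 4857 of all 23805 probe sets. In arthritic against non-arthritic mice at equal age, 0 of 10 members were called (limma, Benjamini-Hochberg adjusted p under 0.05), beside 2.26% of the 23805 probe sets tested. In mice of 4 months or more, 0 of 10 were called (0.576% of all probe sets). Within old mice it was 0 of 10 (0.0714%) and within young mice 0 of 10 (0.311%). For old against young non-arthritic mice it was 0 of 10 (0% of all), for age per month 0 of 10 (0.0042%), and for how far the effect of arthritis in old mice differed from that in young mice 0 of 10 (0% of all). None of the 20 probe sets passed in any of these 7 comparisons.

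None of 60 intervals (95%, 10 genes in 6 comparisons) reached a 2-fold difference either way, and in the arthritis comparisons the widest bounds were 1.53-fold higher and 0.67-fold. Over all 10 mice, a member's highest and lowest values lay 0.22 to 0.62 apart on the log2 scale, with a median of 0.43, against a median of 0.52 over all kept probe sets. In a piece of spleen, fewer cells of a type and less RNA per cell cannot be told apart.

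**Figure D1:**
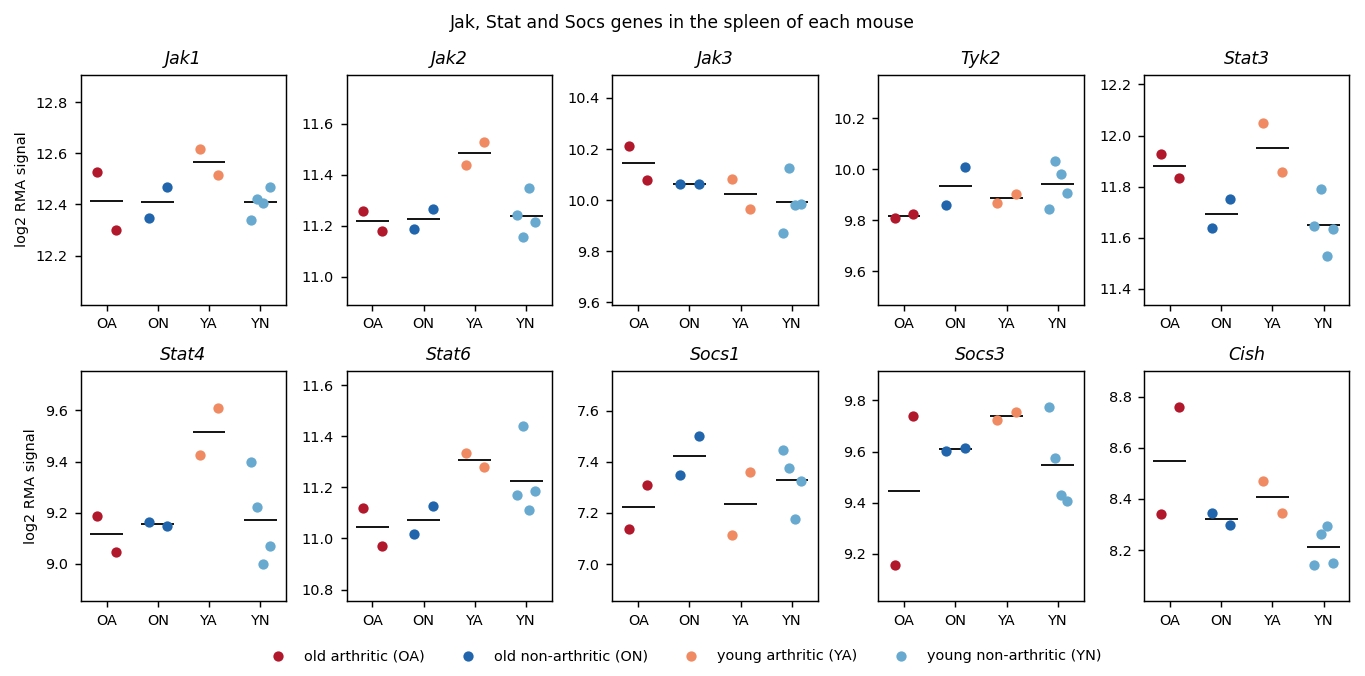
Log2 RMA signal (y axis, each panel 0.9 tall) of the probe set that stands for each gene, with 1 point per mouse and a line at each group mean, for 2 old arthritic (OA), 2 old non-arthritic (ON), 2 young arthritic (YA) and 4 young non-arthritic (YN) mice. Only Stat3 has all 4 arthritic mice above all 6 non-arthritic mice, while Jak2 and Stat4 are set apart in the young arthritic mice and Cish is highest in 1 old arthritic mouse.

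Stat3 had the smallest adjusted p of the members in 3 of the 4 arthritis comparisons. Its log2 signals were 11.93 and 11.83 in old arthritic mice and 12.05 and 11.86 in young arthritic mice, against 11.64 and 11.75 in old non-arthritic mice and 11.64, 11.79, 11.53 and 11.63 in young non-arthritic mice. All 4 arthritic mice lay above all 6 non-arthritic mice, which was also so for 10.4% of all probe sets tested. At equal age the difference was 0.25 ± 0.09 (SE, 95% interval 0.05 to 0.45, 1.19-fold, limma unadjusted p = 0.01919, adjusted p = 0.1418), and with array weights, which give noisier arrays less say, it passed the test (0.27, adjusted p = 0.03282). It was 0.19 ± 0.11 in old mice (adjusted p = 0.3876) and 0.30 ± 0.10 in young mice (adjusted p = 0.181). For age in non-arthritic mice it was 0.05 ± 0.10, with 11.70 in old and 11.65 in young mice.

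The probe sets of Stat3 did not give 1 answer. The second brightest followed the brightest over the 10 mice (Pearson r = 0.80, a description) and differed by 0.26 at equal age (limma adjusted p = 0.1876). In it the arthritic mice (from 11.09) did not all lie above the non-arthritic mice (up to 11.14). The other 2 were dim and differed by 0.04 and -0.13. Their correlations with the brightest were 0.16 and -0.32, and the dimmest was the only member probe set not above the array median in every array (7 of 10).

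Stat4, which T and natural killer (NK) cells use to answer IL-12, was set apart in young arthritic mice. Its log2 signals were 9.42 and 9.61 in young arthritic mice, against 9.40, 9.22, 9.00 and 9.07 in young non-arthritic mice. In old mice they were 9.19 and 9.05 with arthritis and 9.16 and 9.15 without. Young arthritic mice were above every other group, by a margin of 0.03 over the nearest mouse, and the 4 old mice lay within the range of the young non-arthritic ones. Within young mice, 25.6% of all probe sets likewise had the arthritic mice wholly above the non-arthritic ones. The difference was -0.04 ± 0.14 in old mice and 0.34 ± 0.12 in young mice (limma unadjusted p = 0.01789, adjusted p = 0.1997). The effect in old mice minus that in young mice was -0.38 ± 0.18 (95% interval -0.79 to 0.03, limma unadjusted p = 0.06482, adjusted p = 0.9997). At equal age the difference was 0.27 ± 0.13 (adjusted p = 0.2641), and 0.11 without the young arthritic mouse at 9.61.

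Stat6, the factor of IL-4 and IL-13, lay between 10.97 and 11.44 over all mice. Arthritic and non-arthritic mice both averaged 11.18, and at equal age the difference was 0.14 ± 0.10 (limma adjusted p = 0.4457). Among the members' brightest probe sets it had the smallest p for age, with a slope of -0.042 ± 0.019 per month (limma adjusted p = 0.5012). The second Stat6 probe set (r = 0.77 with the brightest) had a slope of -0.018 ± 0.019. Group means of the brightest were 11.05 in old arthritic and 11.31 in young arthritic mice, and 11.07 in old and 11.23 in young non-arthritic mice, with neighbouring groups overlapping throughout.

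Among the kinases, Jak2 had the largest difference at equal age. Its log2 signals were 11.44 and 11.53 in young arthritic mice, against 11.24, 11.16, 11.35 and 11.21 in young non-arthritic mice. In old mice they were 11.26 and 11.18 with arthritis and 11.19 and 11.27 without. The young arthritic mice lay above all 8 others, whose groups overlapped. Within young mice, 25.6% of all probe sets had the arthritic mice wholly above, and the share above all 8 others was not computed. The difference was -0.01 ± 0.09 in old mice and 0.24 ± 0.08 in young mice (1.18-fold, limma adjusted p = 0.1894), and the old minus the young effect was -0.25 ± 0.12 (unadjusted p = 0.07447, adjusted p = 0.9997). At equal age the difference was 0.22 ± 0.08 (95% interval 0.04 to 0.41, limma unadjusted p = 0.02334, adjusted p = 0.1541), and the second Jak2 probe set gave 0.22 as well (r = 0.79 between the pair). With array weights Jak2 also passed the test (0.21, adjusted p = 0.04169).

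The other kinases varied less. Jak1, which most of these receptors use, lay between 12.30 and 12.62 over all mice, with the young arthritic mice (12.62 and 12.51) above the young non-arthritic ones (12.34 to 12.47). Its difference at equal age was 0.15 ± 0.08 (limma adjusted p = 0.3186), but its other 2 probe sets gave 0.02 and 0.05. Jak3, the kinase of the common gamma chain, was 10.21 and 10.08 in old arthritic mice against 10.06 and 10.06 in old non-arthritic mice, a gap of 0.02 between nearest mice, and its difference at equal age was -0.003 ± 0.081. Tyk2 was the steadiest member, with a range of 0.22 over 10 mice. It was 9.81 and 9.82 in old arthritic mice against 9.86 and 10.01 in old non-arthritic mice, and at equal age its difference was -0.05 ± 0.08. A dim second Tyk2 probe set ran the other way (r = -0.56), with a difference of 0.33 ± 0.10 in old mice (unadjusted p = 0.01092, adjusted p = 0.1567).

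**Figure D2:**
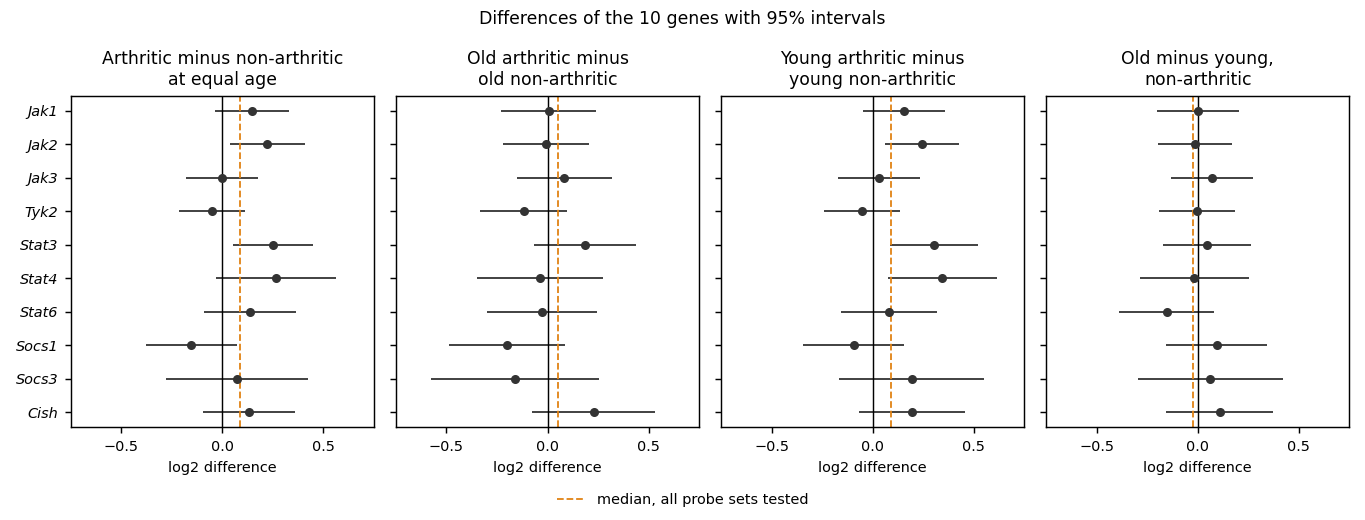
Log2 differences (x axis) with 95% intervals of the 10 genes in 4 comparisons, with a dashed line at the median of all probe sets tested. The intervals of Stat3 and Jak2 lie above 0 at equal age and those of Stat3, Jak2 and Stat4 in young mice, and no gene's does in old mice or with age.

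The feedback genes showed no common direction. Cish, which restrains Stat5 signalling, was 8.34 and 8.76 in old arthritic mice and 8.47 and 8.35 in young arthritic mice. It was 8.34 and 8.30 in old non-arthritic mice and 8.14, 8.26, 8.30 and 8.15 in young non-arthritic mice. The arthritic mice thus lay at the upper end, with an overlap of under 0.01, and only the second old arthritic mouse stood clear of the rest. The difference was 0.23 ± 0.13 in old mice (limma adjusted p = 0.3749), 0.20 ± 0.12 in young mice (adjusted p = 0.391) and 0.13 ± 0.10 at equal age (adjusted p = 0.4634). In old mice it was 0.02 without that second mouse and 0.44 without the first.

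Socs3, the inhibitor that binds gp130 and that IL-6 induces, had the widest spread of the members. Its brightest probe set read 9.16 and 9.74 in the 2 old arthritic mice, against 9.60 and 9.61 in old non-arthritic mice. In young mice it read 9.72 and 9.76 with arthritis, against 9.78, 9.57, 9.43 and 9.41 without. The first old arthritic mouse was the lowest of all and the second among the highest, so that the difference in old mice, -0.16 ± 0.18, was 0.13 without the first and -0.45 without the second. At equal age it was 0.07 ± 0.16 (limma adjusted p = 0.8089). The other 2 probe sets gave 0.21 and 0.18 at equal age, and the one without the suffix that marks probes shared with other transcripts did not follow the brightest (r = -0.32).

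Socs1, which blocks the Jak kinases themselves, was read near the array median. It was 7.14 and 7.31 in old arthritic mice against 7.35 and 7.50 in old non-arthritic mice, and 7.11 and 7.36 in young arthritic mice against 7.45, 7.38, 7.17 and 7.32 in young non-arthritic mice. The array medians were 6.88 to 6.96. Its old arthritic mice lay below the old non-arthritic ones, as for Tyk2, which 16.2% of all probe sets did. The difference was -0.20 ± 0.13 in old mice (limma adjusted p = 0.4108) and -0.15 ± 0.10 at equal age (adjusted p = 0.3874). Single mice moved it: in old mice it was -0.11 without the first old arthritic mouse. At equal age it was -0.09 without the first young arthritic mouse and -0.27 without the second.

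**Figure D3:**
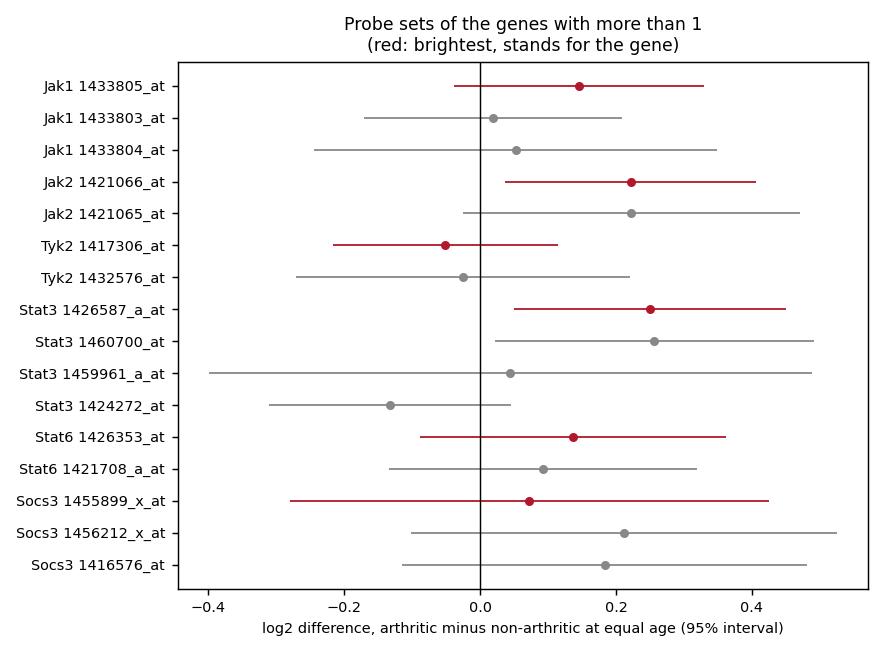
Log2 difference, arthritic minus non-arthritic at equal age, with 95% interval (x axis) for each probe set of the 6 members that have more than 1, with the one that stands for the gene in red. The pairs of Jak2 and the 2 bright probe sets of Stat3 agree in size, while the dim Stat3 probe sets lie at 0.04 and -0.13.

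The members' counts can be set beside those of the whole array. At equal age 7 of 10 members lay above 0, beside 68.5% of all probe sets, and their median difference was 0.13, beside 0.09 for all. In young mice 8 of 10 lay above 0 (69.3% of all), with a median of 0.17 beside 0.09. In old mice it was 4 of 10 (58.6%), with -0.02 beside 0.05. An unadjusted p under 0.05, always with a higher value in arthritic mice, was met by 2 members at equal age (19.2% of all probe sets), by 3 in young mice (15.3%), by 1 in mice of 4 months or more (17.9%) and by 0 in old mice (13.6%). It was met in either direction by 0 members for age in non-arthritic mice (3.19% of all), for age per month (9.98%) and for the old against the young arthritis effect (3.1%). These counts use each member's brightest probe set. The dim second Tyk2 probe set met it for age per month (limma unadjusted p = 0.02985) and for the old against the young effect (0.01824).

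The upward shift was largest among bright probe sets, and Jak1, Jak2, Stat3 and Stat6 are bright. Probe sets with a mean of 11 or more had a median difference of 0.15 at equal age, and 89.5% of the 3096 lay above 0. Those from 9 to 11, where Jak3, Tyk2, Stat4 and Socs3 lie, had 0.12, and those below 9 had 0.04. When the arrays were given 1 common distribution by another quantile normalization, the difference at equal age was 0.08 for Stat3, 0.07 for Jak2 and 0.16 for Stat4, and it turned to -0.03 for Jak1, -0.02 for Stat6 and -0.05 for Socs3. For Tyk2 it moved further below 0, to -0.18 ± 0.08 (limma adjusted p = 0.3027), and for Jak3 to -0.13. In young mice the difference was then 0.14 for Stat3, 0.10 for Jak2 and 0.25 for Stat4, and it turned to -0.01 for Jak1, -0.09 for Jak3 and -0.06 for Stat6. Tyk2 was -0.17 in young mice. What part of the members' differences belongs to this general shift was not tested.

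How many members had groups wholly apart varied with the comparison. Stat3 alone, 1 of 10, had arthritic and non-arthritic mice wholly apart, beside 12.1% of all probe sets in either direction. Within young mice, Jak1, Jak2, Stat3, Stat4 and Cish had both arthritic mice above all 4 non-arthritic mice, 5 of 10 beside 25.6% of all. Within old mice, Jak3 and Stat3 were above, 2 of 10 beside 35.3%, and Tyk2 and Socs1 below.

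**Figure D4:**
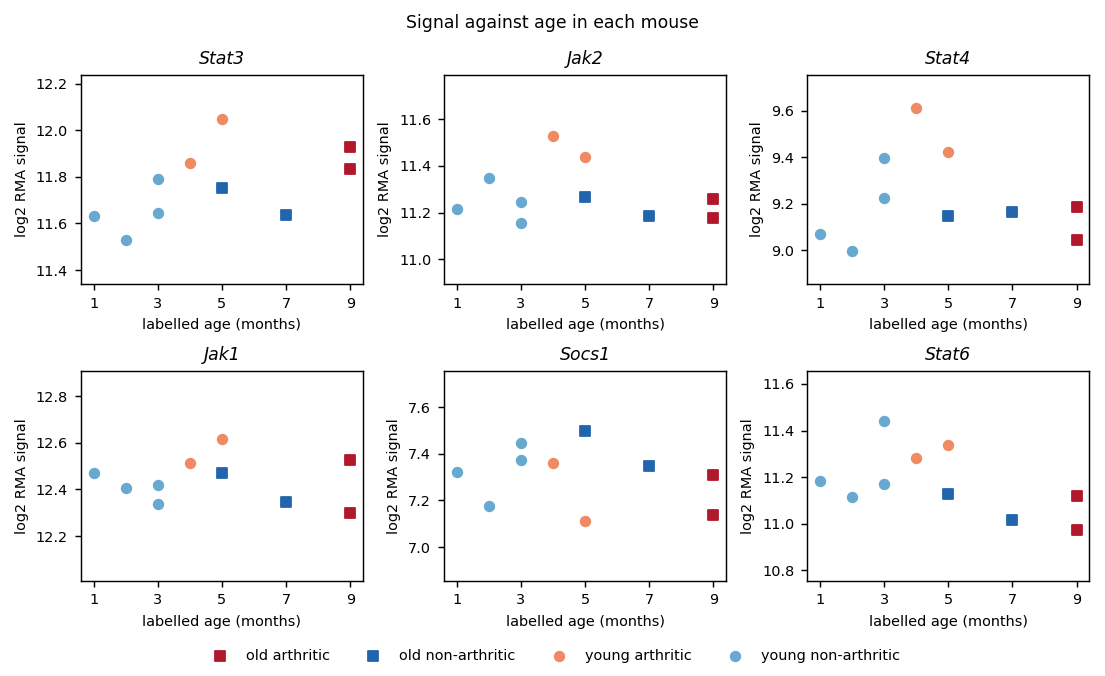
Log2 RMA signal (y axis) against labelled age in months (x axis) in each of 10 mice, for the 6 members with the smallest p at equal age. The arthritic mice are 4 to 9 and the non-arthritic mice 1 to 7 months old, and Stat3 is the only gene whose arthritic mice all lie above the others at any age.

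With age itself, no member stood out. Between old and young non-arthritic mice the 10 differences ran from -0.15 (Stat6) to 0.11 (Cish), with 5 above 0 (42.7% of all probe sets) and a median of 0.02, beside -0.02 for all probe sets. The smallest adjusted p was 0.9974. Over all mice, with arthritis in the same model, the slopes of the brightest probe sets ran from -0.042 per month (Stat6) to 0.030 per month (Cish), and that of Stat3 was 0.0007 ± 0.017. The dim second Tyk2 probe set had a slope of 0.052 ± 0.021 (limma adjusted p = 0.4792).

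The patterns over the 10 mice most like each member's came from varied genes. Stat3 ran closest with Vps11 (Pearson r = 0.94), Jak2 with Camk2g (0.95), Stat4 with Rgs2 (0.95) and Stat6 with Dusp7 (0.95). Cish ran closest with Rhbdd1 (0.96), Socs3 with Cacul1 (0.96), Jak1 with Spon2 (0.92), Jak3 with Itfg2 (0.92), Tyk2 with Dnmbp (0.91) and Socs1 with Rtl8c (0.90). These are the highest of 11869 correlations over 10 arrays that share groups and normalization, and are given as a description.

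The rest of the pathway was read from lists of ligands, receptors, other Stat and Socs genes and phosphatases, 49 of whose 65 matched genes passed the filter on low signal. Of these, 0 were called in any of the 7 comparisons (2.26% of all probe sets at equal age). At equal age 11 of 49 had an unadjusted p under 0.05, all with a higher value in arthritic mice, beside 19.2% of all probe sets. Ligands could hardly be read: 5 of 18 passed the filter, and Il2, Il4, Il6, Il10, Il12b and Ifng did not. Of those that did, Osm, which encodes the gp130 cytokine oncostatin M, was 8.04 to 8.10 in arthritic mice against 7.67 to 7.97 in non-arthritic mice. Such a separation upward was shared by 10.4% of all probe sets. Osm differed by 0.33 ± 0.09 at equal age (limma adjusted p = 0.07423). Among phosphatases and Pias proteins, Ptpn11, which encodes the phosphatase Shp2, came nearest to the threshold (0.43 ± 0.10, adjusted p = 0.05039). Among receptors it was Il3ra, of the IL-3 receptor (0.46 ± 0.12, adjusted p = 0.06501), and Ifnar1, of the type I interferon receptor (0.27 ± 0.08, adjusted p = 0.08151).

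Among genes known to respond to these factors, 1 of 51 was called at equal age, beside 2.26% of all probe sets. Gadd45g, which IL-12 induces in T cells, was 8.18 to 8.36 in the 4 arthritic mice against 7.72 to 7.98 in the 6 non-arthritic mice. Arthritic mice lay wholly above non-arthritic mice for 10.4% of all probe sets. Gadd45g differed by 0.49 ± 0.08 at equal age (limma adjusted p = 0.02474) and by 0.53 in mice of 4 months or more (adjusted p = 0.04171). The call at equal age was lost without either old non-arthritic mouse (adjusted p = 0.1792 without the first, 0.08646 without the second) or either young arthritic mouse (0.08266 without the first, 0.1857 without the second), while the difference stayed between 0.45 and 0.52. In mice of 4 months or more it held without the first old arthritic mouse (0.0271) and was lost without any other single mouse (highest adjusted p 0.3467).

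Other responsive genes had larger differences and more spread. Of the Stat3 list, Lrg1 differed by 0.71 ± 0.17 (limma adjusted p = 0.05703) and Hp, the acute phase protein haptoglobin, by 1.07 ± 0.31 (adjusted p = 0.08738). Of the Stat6 list, Chil3, an alternative activation marker of macrophages, differed by 1.80 ± 0.52 (adjusted p = 0.08738). The list medians at equal age were 0.13 for 11 IL-6 and Stat3 responsive genes, 0.05 for 7 IL-2 and Stat5 responsive genes, 0.15 for 7 IL-4 and Stat6 responsive genes, 0.18 for 5 IL-12 and Stat4 responsive genes, 0.06 for 12 interferon gamma responsive genes and 0.00 for 11 type I interferon responsive genes, beside 0.09 for all probe sets.

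**Figure D5:**
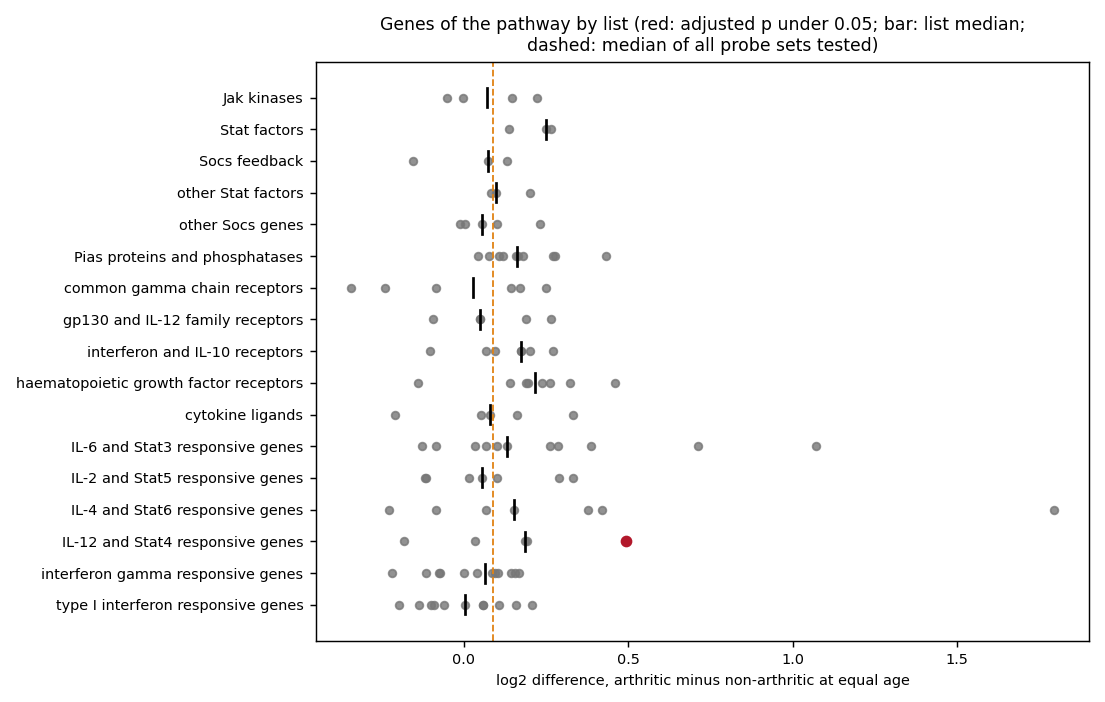
Log2 difference, arthritic minus non-arthritic at equal age (x axis), of each kept gene in 17 lists (rows), with a bar at each list's median and a dashed line at 0.09, the median of all probe sets tested. Gadd45g is the only red point (adjusted p under 0.05), and the type I interferon responsive genes lie around 0.

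The summed signals of cell type markers were not tested and are given as ranges by group. Each sum adds unlogged signals, so its brightest genes weigh most. Over all probe sets, groups did not overlap in either direction for 51.5% in old mice and 31.9% in young mice. At equal age no kept marker gene was called, and Lcn2 alone was called in mice of 4 months or more. The summed signal of 10 neutrophil genes was 16.89 to 17.19 (log2) in old arthritic mice against 16.04 to 16.21 in old non-arthritic mice, and 16.92 to 17.46 in young arthritic mice against 16.41 to 17.14 in young non-arthritic mice. Hp and Chil3 are made by cells of this lineage as well, and the part of these cells in their differences was not tested. The sum of 7 NK and cytotoxic genes was 12.29 to 12.48 in old arthritic mice against 12.94 to 12.98 in old non-arthritic mice, and 12.85 to 12.96 in young arthritic mice against 12.64 to 13.40 in young non-arthritic mice. The sum of 11 T cell genes was 13.53 to 13.55 in old arthritic against 13.66 to 13.78 in old non-arthritic mice, and 13.81 to 13.86 in young arthritic against 13.52 to 13.96 in young non-arthritic mice. Stat4 was lower in the old than in the young arthritic mice, as were the T cell and NK sums. The platelet, macrophage, and capsule and fat sums were lower there too. Stat4 in old arthritic mice (9.19 and 9.05) lay on both sides of old non-arthritic mice (9.16 and 9.15). The sum of 5 platelet genes was 15.22 to 15.42 in young arthritic against 14.78 to 15.16 in young non-arthritic mice. It was 14.89 to 14.99 in old arthritic against 14.63 to 14.68 in old non-arthritic mice. The sum of 10 macrophage genes was 15.98 to 16.05 in young arthritic against 15.85 to 15.86 in young non-arthritic mice. In old mice it was 15.77 to 15.82 with arthritis against 15.89 to 15.96 without. The sum of 6 plasma cell genes was 15.34 to 15.44 in young arthritic against 15.14 to 15.21 in young non-arthritic mice, and 15.15 to 15.66 in old arthritic against 15.13 to 15.14 in old non-arthritic mice. The sum of 7 erythroid genes includes Hba-a1, which did not pass the filter. It was 15.49 to 15.57 in old arthritic against 15.23 to 15.35 in old non-arthritic mice. In young mice it was 15.19 to 15.40 with arthritis against 14.21 to 15.19 without. The sum of 5 genes of capsule and fat includes Cidec, which did not pass the filter. It was 9.50 to 9.79 in old arthritic against 10.18 to 10.22 in old non-arthritic mice, and overlapped in young mice. B cell genes, the mark of spleen, stood between 15.04 and 15.39 in every mouse. The part of cell composition in the members' differences was not tested. The second old arthritic array also stood apart over all genes, at 52.6 on a first principal component that held 40.0% of the variance, where the next array lay at 19.6.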

How the data were processed

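The authors deposited log2 signals, 1 per probe set, from RMA per the labels (version not given in the sources used here), for 1 Affymetrix array per mouse. The study's text does not describe the arrays. Of 45101 rows, 64 controls were left out, leaving 45037 probe sets, 34945 of them with a single gene symbol. A probe set was kept when above its array's median in at least 2 arrays, which left 23805. The brightest kept probe set by mean stands for a gene, and 2 probe sets shared by Jak3 and Insl3 were not used. Levels of different probe sets are not comparable.

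Tests used limma 3.58.1 (R 4.3.3) over all kept probe sets, with two-sided tests and Benjamini-Hochberg adjustment at 0.05. A fit with 4 group means (6 residual degrees of freedom) gave the group comparisons, so groups of 2 share 1 estimate of the spread. Mice of 4 months or more means all arthritic against old non-arthritic mice. A second fit with arthritis and age in months (7 degrees of freedom) gave the values at equal age and per month. The labels call the mice biological replicates. The 10 members, their lists and the marker genes were chosen with earlier results of these data known. All members were named, with listed genes past the threshold or among the smallest p. The fit was checked on simulated data. Alternatives changed the filter, the scaling, the variance model, array weights, the replicate block, the probe set rule and the mice included. For arrays, the number of mice limits the precision.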

Additional observations from a re-analysis of the deposited data

How the results depend on the processing

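The count of members called was 0 under every alternative except array weights, where at equal age it was 2: Stat3 (adjusted p = 0.03282) and Jak2 (adjusted p = 0.04169). That setting called 4857 of all 23805 probe sets at equal age (4122 higher), so the 2 members are not particular in passing there. Leaving out 1 mouse at a time gave 0 in each comparison, lowest and highest alike. Of 630 single values under other settings 589 kept their call and stayed within 1 SE, as did 685 of 700 with 1 mouse left out. With the mean of all its kept probe sets, Stat3 was 0.10 at equal age. Over all probe sets, calls at equal age numbered 538 (431 higher), 177 (118 higher) after another quantile normalization, and 29 (replicate block) to 5475 (no filter) over settings that kept all or all but the old arthritic mice. With 1 mouse left out they numbered 0 to 872, with 0 and 26 without the first and second old non-arthritic mouse, 17 and 2 without the first and second young arthritic mouse, and 268 without the third and 872 without the fourth young non-arthritic mouse. In mice of 4 months or more they numbered 137 (117 higher), 70 (52 higher) after the quantile normalization, 0 with the replicate block or the compared groups only and 3997 with no filter. There every mouse left out moved the count: 1765 without the first old arthritic mouse, and 2 (first old non-arthritic) to 24 (second young non-arthritic) without each of the others. Of 21232 dim probe sets below the filter, 35.8% reached an unadjusted p of under 0.05 in the equal-age comparison. The cause was not tested. Correlations of same-numbered deviations ran from -0.53 to 0.36. They cannot decide whether replicate numbers pair the mice, since in a group of 2 the deviations mirror each other. With the replicate number as a block, 0 members were called, Stat3 was 0.24 at equal age (adjusted p = 0.1957), and Gadd45g lost its call (0.06216). That call was also lost without both old arthritic mice (0.05312). In mice of 4 months or more Gadd45g was lost under 5 settings other than leaving out 1 mouse (adjusted p from 0.0529 to 0.1235).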
